A study of Mus musculus with 8 samples.

Results

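CXC chemokines are small secreted proteins that direct the movement of leukocytes, and 5 of their genes were followed in mouse dendritic cells: Cxcl1, Cxcl2, Cxcl9, Cxcl10 and Cxcl16. All probe sets that the array annotation assigns to 1 of these symbols and to no other gene were taken, which gave 6 probe sets of 22690, for 5 of the 12394 genes so named, with 2 for Cxcl16 and 1 for each of the others. A probe set is the group of short probes that reads 1 transcript on an Affymetrix array. Bone marrow cells of 9-week-old male mice were grown for 7 days with GM-CSF and other cytokines and dexamethasone, and then differentiated towards dendritic cells with GM-CSF until day 7 of differentiation. In the VDRmut mice the vitamin D receptor lacks its DNA-binding domain, and the VDRwt mice are their wild-type controls. Cells of each genotype were given VD3 (1α,25-dihydroxyvitamin D3, 1e-06 M) 30 min before TNFa (50 ng/ml for 4 h), TNFa alone, VD3 alone, or neither. Each of these 8 groups has 1 array, so no group has replicates, and a comparison of treatments uses the VDRmut and the VDRwt array of each treatment as its 2 samples.

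The family is commonly split by receptor. Cxcl1 and Cxcl2 bind Cxcr2 and attract neutrophils, and both are well-known NF-kB targets that TNFa induces within hours. Cxcl9 and Cxcl10 bind Cxcr3 on activated T cells and NK cells and are induced by interferons, Cxcl10 also by NF-kB. Cxcl16 is made as a membrane protein that the protease Adam10 releases, binds Cxcr6, and is known from dendritic cells and macrophages, where it also acts as a scavenger receptor. The vitamin D receptor is a nuclear receptor, and vitamin D is known to restrain the maturation of dendritic cells.

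The values are linear MAS5 signals with a detection call (Present or Absent). Changes are on the log2 scale with the standard error (SE) of a linear model (limma) fitted to 12832 probe sets that were Present on at least 2 of the 8 arrays. A change was called at a Benjamini-Hochberg adjusted p under 0.05 over all of them. Of the CXC probe sets 5 entered the fit, and the 1 for Cxcl9 did not, since it was Present on 0 arrays. Whether separate cultures or animals lie behind the arrays of a genotype is not in the labels, so the p-values may leave out variation between animals of a genotype. With 1 array a group, the spread in a treatment comparison is how far the treatment changes differ between the genotypes. A response that depends on the receptor would count as spread there. Where arrays are said not to overlap, or to stand above others, this describes the signals. The share of all tested probe sets that separate in the same way was not counted.

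Several features of the arrays bear on all the results. Between 46.45% and 51.54% of probe sets were Present on an array. Both Vdr probe sets were lower in VDRmut than in VDRwt in 4 of 4 treatments, but their place relative to the deletion is not known here, so they check the genotype loosely. The 18S ribosomal RNA control (5′ probe set) read 6847 on the VDRmut and 9028 on the VDRwt array with TNFa alone, against 3.5 to 224 on the other 6. The 5′ to 3′ ratio of beta-actin was low in VDRmut with VD3+TNFa (0.449) and in untreated VDRmut cells (0.444), and 0.781 to 0.889 elsewhere. Scan day differed between the VDRwt arrays with TNFa and those without it, and no day is given for VDRmut. In fits with scan day as a block, the VDRmut arrays were grouped with the VDRwt arrays without TNFa. That term therefore equals a genotype difference in the TNFa response and is no separate check of scan day. With it in the fit, a TNFa change is the fitted change in VDRmut alone. The genotype change is then that in cells without TNFa. Such values answer another question than the main fit. The fluidics protocol was FlexGE-WS2 on the VDRwt VD3+TNFa array, EukGE-WS2 on the other VDRwt arrays and not given for VDRmut. The part of the protocol was not tested. Of 12 dendritic cell markers 9 were Present on all 8 arrays and 0 on none. Summed signals of 9 neutrophil markers in VDRmut and VDRwt were 17296 and 7956 with VD3+TNFa, 11442 and 2768 with TNFa, 24454 and 6363 with VD3, and 27965 and 7693 untreated. Their part in the results was not tested, and in bulk RNA a change in cell number cannot be told apart from a change in RNA per cell.

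**Figure D1:**
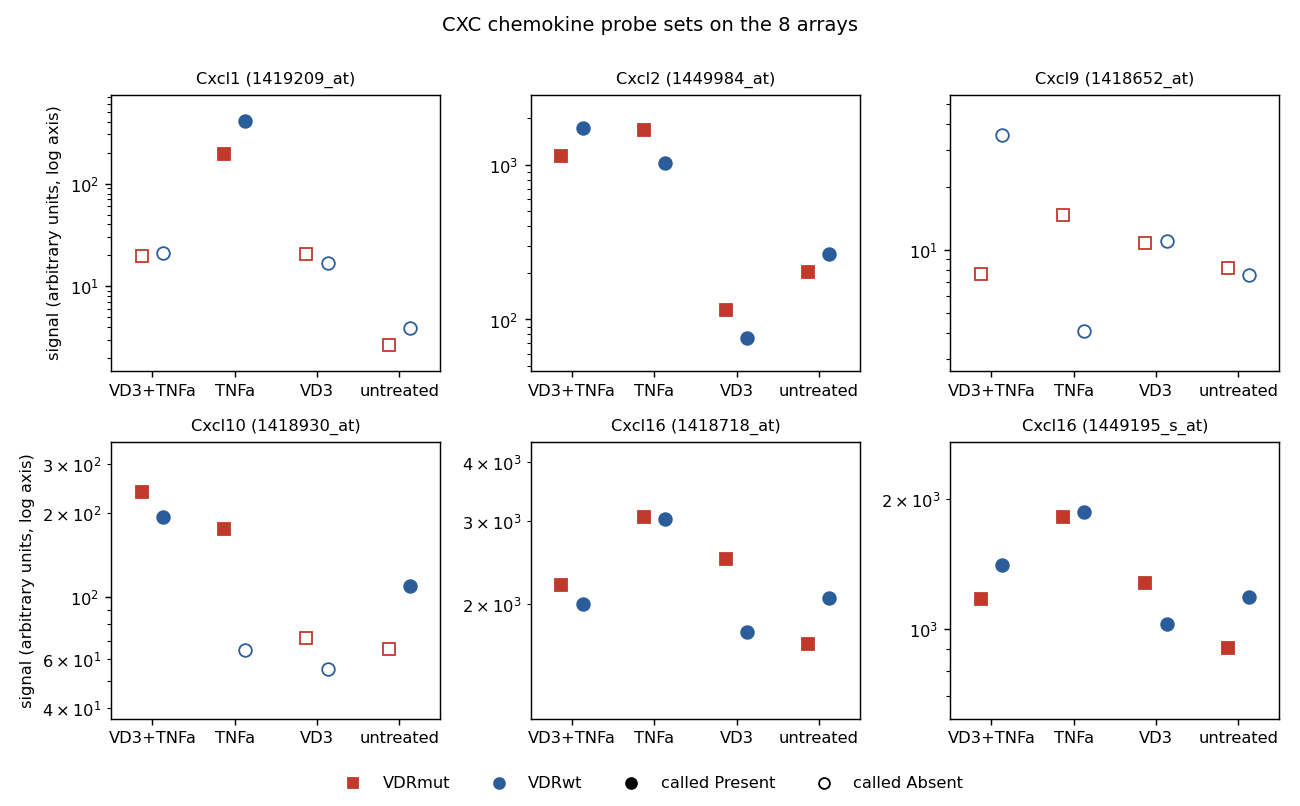
MAS5 signal (log axis) of the 6 CXC probe sets on the 8 arrays, by treatment, with filled points for Present and open points for Absent calls and 1 array per genotype and treatment. Cxcl1 stands above 190 on both arrays with TNFa alone and below 21 on the other 6, whereas the lowest Cxcl2 signal on the 4 arrays with TNFa is 1017.9.

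Cxcl1, the neutrophil attractant known in the mouse as KC, was detected with TNFa alone and on no other array. Its probe set 1419209_at read 192.4 (VDRmut) and 407.6 (VDRwt) with TNFa alone, both Present. With VD3+TNFa it read 19.9 (VDRmut) and 20.9 (VDRwt), with VD3 alone 20.8 and 16.8, and on the untreated arrays 2.7 and 3.9, in that order of genotypes and all Absent. The arrays with TNFa alone did not overlap the rest.

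For TNFa alone against untreated cells, 11.1% of all tested probe sets were called (5.66% higher and 5.39% lower), and 3 of the 5 tested CXC probe sets were called, all higher. Of these Cxcl1 had the largest fitted change, 6.43 ± 0.51 on the log2 scale (limma, adjusted p = 0.000634), whose size depends on Absent untreated signals. With all signals under 50 raised to 50 it was 2.49 (limma, adjusted p = 0.0471). Because the untreated signals were Absent, the rise is given as at least 48.1-fold, for which each untreated signal was raised to the lowest Present signal on its array where it lay below that. These floors were 7.7 (VDRmut) and 4.4 (VDRwt), below Absent Cxcl1 signals such as 20.9, so the bound is an estimate. The log2 change was 6.16 in VDRmut and 6.71 in VDRwt. Cxcl1 passed the filter through the same 2 arrays on which it is high, so its presence among the tested probe sets already required a difference of this kind.

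With VD3 given before TNFa, Cxcl1 fell to 19.9 (VDRmut) and 20.9 (VDRwt), against 192.4 and 407.6 with TNFa alone. The change was -3.78 ± 0.51 (limma, adjusted p = 0.00586), a fitted 13.7-fold fall that rests on Absent signals with VD3+TNFa, in a comparison in which 6.97% of all tested probe sets (3.4% higher and 3.57% lower) and 1 of the 5 CXC probe sets were called. It was -3.27 in VDRmut and -4.29 in VDRwt, and the lowest Present signal was 9.21 times the highest Absent one. Cxcl1 was tested here too only because of the 2 arrays with TNFa alone, so its call is no support beyond the signals themselves. Without the VDRwt TNFa array the change was -3.29 with an adjusted p of 0.106. With all signals under 50 raised to 50 it was -2.49 with an adjusted p of 0.0683. The 18S control is high on the same pair of arrays as Cxcl1. The summed signal of 3 mast cell and basophil markers is also higher there, at 726 (VDRmut) and 1235 (VDRwt) against 246 to 470 on the other 6 arrays. Cpa3 was higher in both genotypes, at 448.4 (VDRmut) and 685.3 (VDRwt). Mcpt8 was higher in VDRwt (503.7) but read 226.9 in VDRmut, against 232.6 untreated. Fcer1a was Absent on all 8 arrays. Dendritic cell markers moved both ways there. Itgax is lower, at 1167.9 (VDRmut) and 998.7 (VDRwt) against 3354.4 to 5138.3. Ccr7, Cd83, Cd86, Zbtb46 and Flt3 are higher, Cd83 for example at 4618.7 (VDRmut) and 5482.0 (VDRwt) against 417.3 to 1488.2. The sum over the 12 markers was 46337 (VDRmut) and 44015 (VDRwt), within the 27668 to 48336 of the other 6 arrays. The part of these in the result was not tested.

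The difference between the TNFa responses with and without VD3 was tested directly for every probe set, and 1.77% of them were called (0.959% with a positive and 0.81% with a negative difference). Of the 5 CXC probe sets Cxcl1 was called, with a difference of -6.31 ± 0.73 (limma, adjusted p = 0.00759). Here too Cxcl1 was tested only because of the 2 arrays with TNFa alone, so the call is no support beyond the signals. The size of the difference, too, depends on Absent signals: it takes in -3.78 for VD3+TNFa against TNFa alone and the opposite of 2.53 for VD3 alone against untreated cells. Given VD3, TNFa against VD3 alone gave 0.13 ± 0.51 (limma, adjusted p = 0.906), with all 4 signals Absent. The difference lost its call without the VDRwt TNFa array (-5.81, adjusted p = 0.0672), without the VDRmut VD3 array (-5.87, adjusted p = 0.0683) and with a signal floor of 50 (-2.49, adjusted p = 0.145). Among Absent signals, VD3 alone read 20.8 (VDRmut) and 16.8 (VDRwt) against 2.7 and 3.9 untreated (2.53 ± 0.51, limma, adjusted p = 0.629), and no change is shown above background there.

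Cxcl2, the neutrophil attractant also called MIP-2, was Present on all 8 arrays and followed TNFa with VD3 and without it. Its probe set 1449984_at read 1143.8 (VDRmut) and 1733.5 (VDRwt) with VD3+TNFa, and 1670.2 and 1017.9 with TNFa alone. With VD3 alone it read 115.6 (VDRmut) and 75.9 (VDRwt), and on the untreated arrays 202.8 and 266.2. The 4 arrays with TNFa did not overlap the 4 without it, and within each genotype the VD3 array was the lowest of the 4.

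Cxcl2 rose 5.61-fold with TNFa alone over untreated cells (2.49 ± 0.34, limma, adjusted p = 0.00335), 8.24-fold in VDRmut and 3.82-fold in VDRwt. With VD3 present, TNFa raised it 15.0-fold over VD3 alone (3.91 ± 0.34, limma, adjusted p = 0.00462), 9.89-fold in VDRmut and 22.8-fold in VDRwt. That comparison called 0.803% of all tested probe sets (0.639% higher and 0.164% lower) and 1 of the 5 CXC probe sets, Cxcl2, which had rank 5 of the 12832 by size of the rise. The call with VD3 was lost without the VDRwt VD3 array (3.56, adjusted p = 0.0841), without the VDRwt VD3+TNFa array (3.46, adjusted p = 0.0781), with scan day as a block (3.88, adjusted p = 0.0937) and with a signal floor of 50 (adjusted p = 0.122). The call without VD3 was lost with that floor (limma, adjusted p = 0.0592) and kept with the scan day block (2.46, limma, adjusted p = 0.0373). The lowest Cxcl2 signal was 75.9, so the floor of 50 left its signals and both changes as they were. Its SE, which draws on all probe sets, rose to 0.41. The scan day block equals a genotype difference in the TNFa response, so it does not check scan day.

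The level of Cxcl2 with VD3+TNFa was not separated from that with TNFa alone. The change was 0.11 ± 0.34 (limma, adjusted p = 0.888), -0.55 in VDRmut and 0.77 in VDRwt. Its TNFa response was larger with VD3 by 1.42 ± 0.48, which did not pass (limma, adjusted p = 0.152). With the VDRmut untreated and VDRmut VD3+TNFa arrays left out that difference was 2.58 (adjusted p = 0.0197). VD3 alone against untreated gave -1.31 ± 0.34 for Cxcl2, -0.81 in VDRmut and -1.81 in VDRwt (limma, adjusted p = 0.629). In that comparison limma called 0 of the 12832 probe sets (0%), with 977 at an unadjusted p under 0.05.

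**Figure D2:**
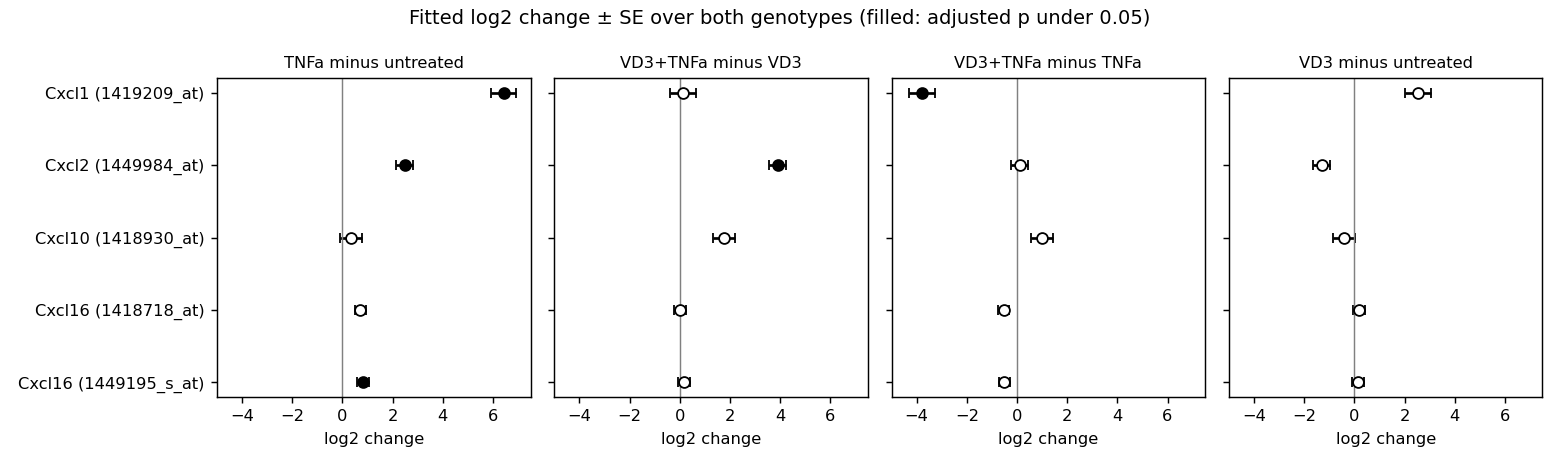
Fitted log2 change ± SE over both genotypes (horizontal axes) of the 5 tested CXC probe sets for TNFa without VD3, TNFa with VD3, VD3 in TNFa-treated cells and VD3 alone, with filled points for an adjusted p under 0.05. Cxcl1 is filled at 6.43 in the first comparison and at -3.78 in the third, Cxcl2 at 2.49 in the first and 3.91 in the second, and no point is filled for VD3 alone.

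Cxcl1 and Cxcl2 are neighbours on chromosome 5, with 0 annotated gene starts between them. The 250 bases before their start sites are shown because both genes rose with TNFa alone, while with VD3 added Cxcl2 still rose and Cxcl1 stayed Absent. The sequences are from RefSeq (build GRCm38.p6), written 5′ to 3′ on the gene's strand, and capitals mark matches to the NF-kB decamer (GGG, any 3 bases, TTCC) on either strand.
Cxcl1 promoter (chr5:90890995-90891244, + strand): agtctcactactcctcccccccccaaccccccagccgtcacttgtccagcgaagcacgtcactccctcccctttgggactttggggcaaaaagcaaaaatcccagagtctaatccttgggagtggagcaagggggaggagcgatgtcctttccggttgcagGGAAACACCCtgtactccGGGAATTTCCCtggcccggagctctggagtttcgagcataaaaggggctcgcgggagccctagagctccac
Cxcl2 promoter (chr5:90903649-90903898, + strand): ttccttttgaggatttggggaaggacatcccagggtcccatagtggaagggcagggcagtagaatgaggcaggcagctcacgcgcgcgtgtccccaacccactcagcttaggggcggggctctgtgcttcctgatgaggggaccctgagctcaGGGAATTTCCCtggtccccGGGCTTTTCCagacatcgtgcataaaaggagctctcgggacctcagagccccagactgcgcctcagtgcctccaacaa
The decamer occurs in 4.65% of 32851 RefSeq promoter windows of the same length. In Cxcl1 it was matched at -89 to -80 and at -71 to -62 relative to the start site, and in Cxcl2 at -97 to -88 and at -78 to -69. At GGGAATTTCCC the forward and the reverse match overlap by all but 1 base on each side. The longest run the windows of Cxcl1 and Cxcl2 share is GGGAATTTCCCTGG, 14 bases from -71 in Cxcl1 and from -97 in Cxcl2, and of the 32851 windows those 2 hold it. A direct repeat of the vitamin D receptor type (AGNTCA, any 3 bases, AGNTCA) was searched on both strands, occurs in 0.0517% of the windows and was not matched in either. A match is a description of letters and shows no binding, and the lack of one says nothing of the receptor.

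Cxcl10, the interferon-inducible ligand of Cxcr3 known as IP-10, was read near the detection limit. Its probe set 1418930_at read 238.4 (VDRmut, Present) and 192.9 (VDRwt, Present) with VD3+TNFa, and 175.6 (VDRmut, Present) and 64.7 (VDRwt, Absent) with TNFa alone. With VD3 alone it read 71.7 (VDRmut) and 55.4 (VDRwt), both Absent, and untreated 65.4 (VDRmut, Absent) and 109.7 (VDRwt, Present). The VD3+TNFa arrays were the highest of all 8 and did not overlap the others, and with TNFa alone the genotypes lay apart.

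No change of Cxcl10 passed the test. TNFa with VD3 against VD3 alone gave 1.77 ± 0.44 (limma, adjusted p = 0.08), a fitted 3.4-fold difference from Absent signals, with 1.73 in VDRmut and 1.80 in VDRwt. The lower signal with VD3+TNFa was 2.69 times the higher signal with VD3 alone. It passed without the VDRwt untreated array (adjusted p = 0.0354), without the VDRmut untreated array (adjusted p = 0.0371) and without both arrays of low actin ratio (2.07, adjusted p = 0.0467). TNFa alone against untreated gave 0.33 ± 0.44 (limma, adjusted p = 0.69), made of 1.42 in VDRmut and -0.76 in VDRwt. The difference between the TNFa responses with and without VD3 was 1.43 ± 0.63 (limma, adjusted p = 0.246), and VD3+TNFa against TNFa alone gave 1.01 ± 0.44 (limma, adjusted p = 0.217). VD3 alone against untreated gave -0.43 ± 0.44 (limma, adjusted p = 0.77).

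The Cxcl10 promoter window is shown because the gene is known to take both interferon and NF-kB input. Capitals mark, in order from the 5′ end, the interferon-stimulated element (GAAA, any 2 bases, GAAA), a pair of NF-kB decamers and the AP-1 site TGANTCA, each searched on both strands.
Cxcl10 promoter (chr5:92348890-92349139, - strand): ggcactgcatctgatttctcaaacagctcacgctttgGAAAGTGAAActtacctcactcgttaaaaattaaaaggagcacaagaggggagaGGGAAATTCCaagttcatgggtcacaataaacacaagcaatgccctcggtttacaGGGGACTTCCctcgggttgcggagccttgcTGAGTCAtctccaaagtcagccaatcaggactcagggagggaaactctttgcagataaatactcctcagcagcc
The interferon element lies at -213 to -204, the decamers at -159 to -150 and at -104 to -95, and the AP-1 site at -74 to -68. They occur in 2.98% (interferon element), 4.65% (decamer) and 6.75% (AP-1 site) of all windows. The vitamin D receptor repeat was not matched in Cxcl10. None of these 4 motifs was matched in the window of Cxcl9.

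**Figure D3:**
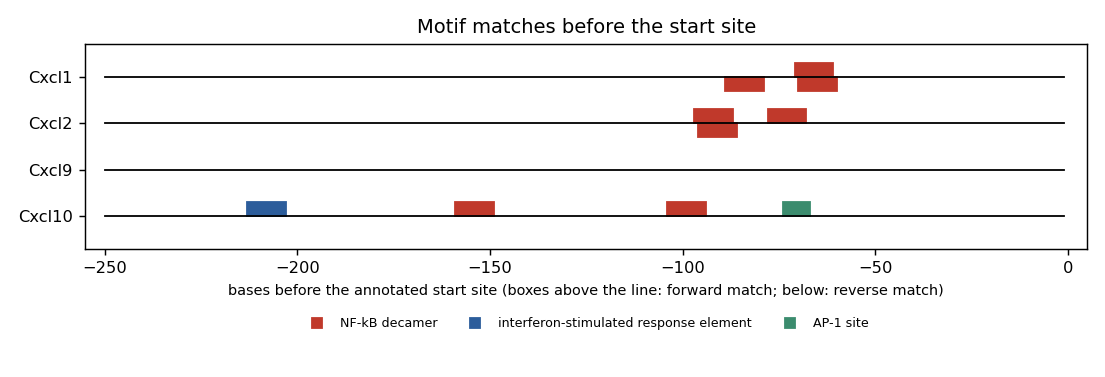
Positions of motif matches in the 250 bases before the start sites of Cxcl1, Cxcl2, Cxcl9 and Cxcl10 (horizontal axis, bases from the start site), coloured by motif. Decamer matches lie within 100 bases of the start in Cxcl1 and Cxcl2 and beyond 90 bases in Cxcl10, which also has 1 interferon element and 1 AP-1 match, and Cxcl9 has 0.

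Cxcl9, the interferon-gamma-inducible ligand of Cxcr3 known as MIG, was not detected. Its probe set 1418652_at was Absent on all 8 arrays, at 7.7 (VDRmut) and 35.4 (VDRwt) with VD3+TNFa, 14.7 and 4.1 with TNFa, 10.8 and 11.0 with VD3, and 8.2 and 7.6 untreated, in that order of genotypes. These values have no order above background. The genes of Ifnb1 and Ifng, the interferons that induce the Cxcr3 ligands, were Present on 0 arrays, as was Cxcl11, the other Cxcr3 ligand. Of 5 T cell markers, T cells being a usual source of interferon-gamma, 4 were Present on 0 arrays, Ifng among them. The remaining marker, Cd8a, was Present on 7 arrays at low signals of 20.1 to 52.7. Whether T cells or interferon had a part in the Cxcl9 signals was not tested.

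Cxcl16, the membrane-bound ligand of Cxcr6, was detected in every condition and varied little. Probe set 1418718_at read 2193.3 (VDRmut) and 1999.3 (VDRwt) with VD3+TNFa, 3058.1 and 3024.5 with TNFa alone, 2488.9 and 1740.9 with VD3 alone, and 1646.2 and 2059.4 untreated. Probe set 1449195_s_at read 1174.6 (VDRmut) and 1408.3 (VDRwt) with VD3+TNFa, 1812.9 and 1859.3 with TNFa alone, 1279.2 and 1025.1 with VD3 alone, and 903.1 and 1185.4 untreated. Both were Present on all 8 arrays, and on both the arrays with TNFa alone were the highest. How many of all tested probe sets share that order was not counted. The highest signal was 1.86 and 2.06 times the lowest, against 22.8 times for Cxcl2.

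The TNFa call of Cxcl16 depends on the probe set. TNFa alone against untreated gave 0.83 ± 0.23 for 1449195_s_at (1.77-fold, limma, adjusted p = 0.0485) and 0.72 ± 0.23 for 1418718_at (1.65-fold, limma, adjusted p = 0.0815). The first lost its call whichever of the 8 arrays was left out, with changes of 0.63 to 1.03 and adjusted p of 0.0546 to 0.198, and also with scan day as a block (0.77, adjusted p = 0.204). The scan day block equals a genotype difference in the TNFa response, so it does not check scan day. With VD3 present, TNFa gave 0.17 ± 0.23 for 1449195_s_at and 0.01 ± 0.23 for 1418718_at (limma, adjusted p = 0.689 and 0.987). VD3+TNFa against TNFa alone gave -0.51 ± 0.23 and -0.54 ± 0.23 (limma, adjusted p = 0.218 and 0.21), negative in both genotypes for both probe sets. The difference between the TNFa responses with and without VD3 was -0.66 ± 0.32 and -0.72 ± 0.33 and did not pass (limma, adjusted p = 0.29 and 0.268). The 2 probe sets had a Pearson r of 0.925 over the 8 arrays.

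The genotypes were then compared over all 4 treatments. VDRmut against VDRwt called 0.0623% of all tested probe sets (0.0546% higher and 0.00779% lower) and 0 of the 5 CXC probe sets. The changes were -0.34 for Cxcl1, 0.08 for Cxcl2, 0.34 for Cxcl10, and 0.09 and -0.09 for Cxcl16 (limma, adjusted p from 0.846 to 0.962). The change of the TNFa response with genotype was -0.47 ± 0.72 for Cxcl1 and 1.06 ± 0.55 for Cxcl10 (limma, adjusted p = 0.874 for Cxcl10), and limma called 0 probe sets on the array (0%), with 619 at an unadjusted p under 0.05. The change of the VD3 response with genotype was 0.93 ± 0.75 for Cxcl1, 0.48 ± 0.32 for Cxcl16 1418718_at and between -0.16 and 0.24 for the others (limma, adjusted p = 1), with 0 called by limma (0%) and 390 at an unadjusted p under 0.05. These fits leave 2 residual degrees of freedom, and the SE of Cxcl1 leaves room for a difference of more than 1 on the log2 scale in either interaction. On the arrays with VD3+TNFa, where the fall of Cxcl1 was read, VDRmut and VDRwt stood at 19.9 and 20.9, both Absent.

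**Figure D4:**
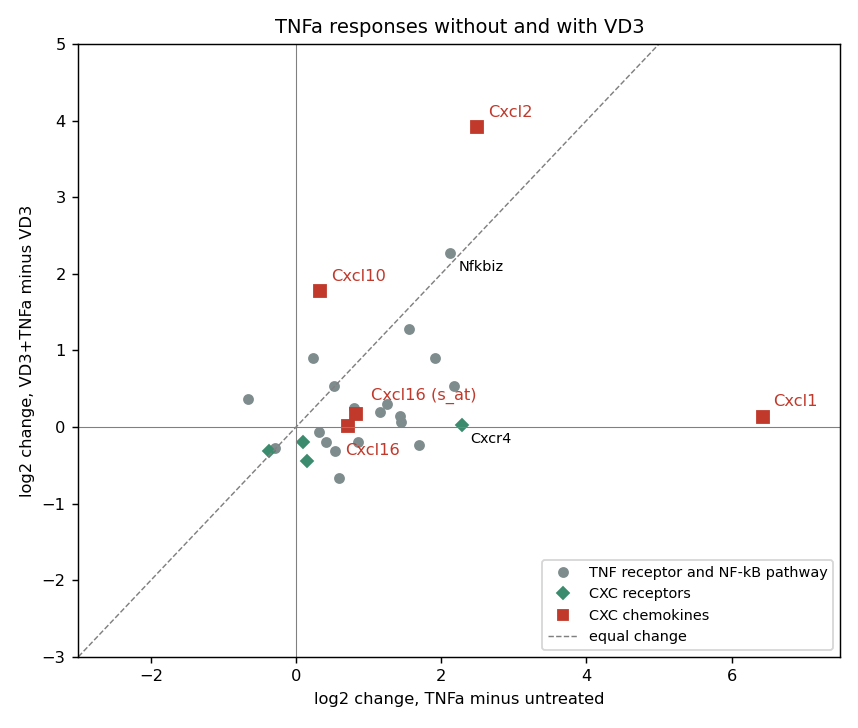
Log2 change with TNFa minus untreated (horizontal) against VD3+TNFa minus VD3 (vertical) for the CXC chemokines, CXC receptors and genes of TNF receptor signalling and NF-kB, with the line of equal change. Cxcl1 lies far below the line at 6.43 and 0.13, Cxcl2 above it at 2.49 and 3.91, and Nfkbiz close to it at 2.12 and 2.27.

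Among the other CXC genes, Cxcr4, the receptor of Cxcl12 that guides dendritic cells, showed calls in the same comparisons as Cxcl1. It read 301.3 (VDRmut) and 449.7 (VDRwt) with VD3+TNFa, 1086.9 and 1557.0 with TNFa alone, 375.3 and 347.8 with VD3 alone, and 246.7 and 292.5 untreated, all Present. It rose 4.84-fold with TNFa alone (2.28 ± 0.24, limma, adjusted p = 0.00152) and fell 3.53-fold with VD3+TNFa against TNFa alone (-1.82 ± 0.24, limma, adjusted p = 0.00511), and its TNFa response differed with VD3 by -2.25 ± 0.34 (limma, adjusted p = 0.0224). The other 3 receptors tested, Cxcr3, Cxcr5 and Ackr1, had 0 calls in these comparisons. Cxcr2 and Cxcr6, the receptors of Cxcl1, Cxcl2 and Cxcl16, were Present on 0 arrays.

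Of 10 further CXC ligands 9 were on the array and 3 were tested, with 0 called in any comparison. Pf4, a chemokine of platelets and myeloid cells, read 676.5 to 1471.9 and Ppbp, the precursor of a neutrophil attractant, 95.7 to 215.5, both Present on all 8 arrays. Cxcl12 was Present on 2. Cxcl5, another Cxcr2 ligand, was Present on 0, at 1.2 to 15.3. Of 5 tested proteases that cut chemokines, Adam10 (537.0 to 907.1) and Adam17 (753.6 to 1193.6) were Present on all arrays without a call. Mmp8, the neutrophil collagenase, was lower by 1.45 on the log2 scale with TNFa alone (a change of -1.45 ± 0.29, limma, adjusted p = 0.014) and higher with VD3+TNFa than with TNFa alone (1.20 ± 0.29, limma, adjusted p = 0.0398). The neutrophil marker sums given above were lowest with TNFa alone in both genotypes. So were S100a8, S100a9, Ltf, Lcn2, Ngp and Cd177 singly, but other markers differed. In VDRwt, Mpo was highest with TNFa alone (166.3, against 107.2 to 119.0 on the other VDRwt arrays), as was Elane, which was Absent. Camp read 59.4 there against 44.1 untreated. The part of the neutrophil markers in the Mmp8 changes was not tested.

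The pathways that feed the CXC genes were read from lists. Of 19 tested genes of TNF receptor signalling and NF-kB, 8 rose with TNFa alone and 0 fell, where 5.66% of all tested probe sets were called higher and 5.39% lower. The list median was 0.85 against 0.04 for all tested probe sets. They include Birc2 (2.17) and Nfkbiz (2.12), an inducible nuclear IkB protein, and the feedback inhibitor Tnfaip3 (1.91), each on the log2 scale (limma, adjusted p from 0.00177 to 0.00307). With VD3, 2 rose and 0 fell (median 0.20 against -0.07, with 0.639% of all tested probe sets called higher), Nfkbiz (2.27 ± 0.24, limma, adjusted p = 0.0133) and Birc3 (1.28, limma, adjusted p = 0.0494). Nfkbiz read 320.4 (VDRmut) and 408.1 (VDRwt) with VD3+TNFa, 386.9 and 399.7 with TNFa alone, 73.3 and 77.0 with VD3 alone, and 79.1 and 102.9 untreated, so like Cxcl2 its 4 arrays with TNFa stood above its 4 without. VD3+TNFa against TNFa alone lowered Birc2, Ikbkb and Relb and raised 0 of the 19 (changes of -1.86, -1.09 and -1.25, limma, adjusted p from 0.00508 to 0.0303). In that comparison 3.57% of all tested probe sets were called lower.

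Among the interferon regulatory factors, transcription factors of the interferon response, TNFa alone raised Irf1 (1.15 ± 0.19, limma, adjusted p = 0.00782) and Irf8 (1.77) and lowered Irf7 (-2.15 ± 0.34, limma, adjusted p = 0.00577). With VD3+TNFa against TNFa alone, Irf1 (-0.81) and Irf8 (-1.54) were lower and Irf7 (1.47) was higher (limma, adjusted p from 0.0133 to 0.0403). Of 7 tested genes that act on AU-rich mRNAs, a class to which Cxcl1 and Cxcl2 transcripts belong, Zfp36, known to promote their decay, rose with TNFa alone (1.18 ± 0.21, limma, adjusted p = 0.00944) and fell with VD3+TNFa against TNFa alone (-1.28 ± 0.21, limma, adjusted p = 0.00957). Hnrnpd, another binder of AU-rich mRNA, was higher in the second of these comparisons (1.29, limma, adjusted p = 0.0413).

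Likeness of pattern was measured as Pearson's r of log2 signal over the 8 arrays among 4249 genes with a log2 range of at least 1. The arrays share their treatments, so r is given as a description. Cxcl1 was Absent on 6 of the 8 arrays and Cxcl10 on 4, so their r rests partly on differences between background readings. The genes most like Cxcl1 were Sinhcaf (0.992), Rassf2 (0.980) and Irf1 (0.979), and those most like Cxcl2 were Fbxo22 (0.983), Clec4e (0.975) and Hdac2 (0.971). Irf1 read 683.3 (VDRmut) and 655.9 (VDRwt) with VD3+TNFa, against 1137.4 and 1216.2 with TNFa alone. Clec4e, a receptor for mycobacterial glycolipid, read 5310.8 (VDRmut) and 4995.3 (VDRwt) with VD3+TNFa and 7522.1 and 4859.9 with TNFa alone. Those most like Cxcl10 were Tma16 (0.969), Nfkbie (0.951) and Acod1 (0.939), and those most like Cxcl16 were Cdkn2b (0.984), Relb (0.957) and Etv6 (0.952). Among the CXC genes r was 0.868 between Cxcl1 and Cxcl16 and 0.767 between Cxcl2 and Cxcl10, against 0.545 between the neighbours Cxcl1 and Cxcl2 and 0.101 between Cxcl1 and Cxcl10.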

How the data were processed

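Signals were intensities on a linear scale with a detection call for each probe set, as deposited by the authors; MAS5 is named, with no version, in the submitters' processing notes. A deposited series matrix differed from the tables by at most 0.05. Every array had a 2% trimmed mean of 200.1 and was rescaled to it (factors 0.99997 to 1), and 3 signals listed at 0 were raised to 0.1 before log2. The 64 control probe sets and those Present on fewer than 2 arrays were left out. Genes were named from the platform annotation: 20393 probe sets had 1 symbol, 691 several and 1606 none, and 20364 matched RefSeq (GRCm38.p6). For genes outside the CXC members the brightest probe set was used.

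The fits used limma 3.58.1 under R 4.3.3 (lmFit, eBayes with a trend) with genotype and a 4-level treatment (3 residual degrees of freedom), so the genotypes serve as replicates of a treatment; interactions with genotype had separate fits with 2 residual degrees of freedom. The fits were tested on simulated data. The number of arrays limits the precision. Alternatives were a signal floor of 50, no filter, quantile normalisation, scan day as a block, no genotype term, and arrays left out singly or in pairs. Leaving out both TNFa-alone arrays was chosen after seeing the data. The scan day block set the VDRwt arrays with TNFa apart from all others, VDRmut included. It therefore equals a genotype difference in the TNFa response. From the other lists, called genes were named, at most 4 for each list and comparison, and values of other members were chosen after they were seen. For likeness, the 3 genes of highest r were named for each member. A further gene list and a further motif are not reported here. The members and lists were chosen with earlier results of these data known.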

Additional observations from a re-analysis of the deposited data

Results flagged for a closer look

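Among contrasts with a Present call on at least 1 array of the pair in each genotype, the VDRmut and the VDRwt pair moved in opposite directions in 6 cases. Each rests on 1 array a side, and the difference within that contrast was not tested; over both VD3 states, the genotype difference in the TNFa response of Cxcl10 was 1.06 ± 0.55 (limma, adjusted p = 0.874). For VD3+TNFa against TNFa alone, Cxcl2 gave -0.55 in VDRmut and 0.77 in VDRwt on the log2 scale. For TNFa alone against untreated, Cxcl10 gave 1.42 in VDRmut and -0.76 in VDRwt. For TNFa with VD3 against VD3 alone, Cxcl16 gave -0.18 in VDRmut and 0.20 in VDRwt with probe set 1418718_at, and -0.12 in VDRmut and 0.46 in VDRwt with 1449195_s_at. For VD3 alone against untreated, the same probe sets gave 0.60 in VDRmut and -0.24 in VDRwt (1418718_at), and 0.50 in VDRmut and -0.21 in VDRwt (1449195_s_at). Where 1 or both genotypes had Absent signals alone, opposite signs were read for Cxcl10 with VD3 alone (0.13 in VDRmut and -0.99 in VDRwt), for Cxcl1 in TNFa with VD3 (-0.06 and 0.32) and in 3 contrasts of Cxcl9, and these show no direction above background. The actin ratio was low on the VDRmut untreated and VDRmut VD3+TNFa arrays. By the design 1 of these enters the VDRmut value of every such contrast, also where the genotypes agreed. The low ratio therefore does not set the 6 cases apart, and its part was not tested. No group has 4 arrays, so no array was tested for lying apart from its group.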

How the results depend on the processing

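No paired analysis was possible because the labels give no replicate numbers that would pair arrays; genotype is already a term of the fit, and the fit without it is among the alternatives. Of 545 refitted CXC values, 461 kept their direction and side of the threshold, 22 lost a call, 4 gained one and 58 turned their sign, 0 of these among called values; the causes were not tested.

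Calls for TNFa without VD3 were 1418 and became 512 with a signal floor of 50 and 341 with scan day as a block. Here and below, that block stands for a genotype difference in the TNFa response, so its TNFa counts are for the fitted change in VDRmut. Calls for TNFa with VD3 were 103 and became 1 with the floor, 6 without a filter, 1 with scan day, 40 without a genotype term and 168 without both low-actin arrays. Calls for the difference between these responses were 227 and became 10, 56, 136, 127 and 144 in the same settings. Calls for VD3 in TNFa-treated cells were 894 and became 96 with the floor and 578 without a filter. VD3 alone called 0, and 1 with the floor. VDRmut against VDRwt called 8, and 0 with the floor, 3 without a filter and 2 with scan day. With any 1 array left out the counts were 365 to 1089 (TNFa without VD3), 0 to 692 (TNFa with VD3), 7 to 470 (their difference), 104 to 1176 (VD3 in TNFa-treated cells), 0 to 59 (VD3 alone), 2 to 8 (genotype), 0 to 18 (VD3 by genotype) and 0 (TNFa by genotype, also 0 in every setting run).

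Signs turned as follows. Without both low-actin arrays, Cxcl10 gave -0.49 for TNFa without VD3, Cxcl1 -0.03 for TNFa with VD3, both Cxcl16 probe sets -0.12 for VD3 alone, and Cxcl16 1449195_s_at 0.14 for genotype. With scan day, Cxcl1 gave -0.11 and Cxcl16 1418718_at -0.0022 for TNFa with VD3, and Cxcl10 -0.19 for genotype. With quantile normalisation, Cxcl16 1418718_at gave -0.08 for TNFa with VD3 and Cxcl1 0.05 for TNFa by genotype. Without both TNFa-alone arrays, the genotype change was -0.13 for Cxcl2 and -0.02 for Cxcl10.

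With 1 array left out, TNFa without VD3 ran from -0.40 to 1.06 for Cxcl10. TNFa with VD3 ran from -0.31 to 0.56 for Cxcl1, and from -0.28 to 0.30 (1418718_at) and -0.11 to 0.44 (1449195_s_at) for Cxcl16. VD3 alone ran from -1.15 to 0.30 for Cxcl10, and from -0.11 to 0.46 and -0.13 to 0.42 for the same Cxcl16 probe sets. VD3 in TNFa-treated cells ran from -0.34 to 0.57 for Cxcl2. The genotype change ran from -0.13 to 0.31 for Cxcl2, -0.02 to 0.71 for Cxcl10, and -0.06 to 0.22 and -0.23 to 0.01 for Cxcl16. TNFa by genotype ran from -0.97 to 0.04 for Cxcl1, -0.71 to 0.61 for Cxcl2, and -0.44 to 0.40 and -0.47 to 0.24 for Cxcl16. VD3 by genotype ran from -0.76 to 0.45 for Cxcl2, -1.10 to 1.09 for Cxcl10 and -0.05 to 0.53 for Cxcl16 1449195_s_at.

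Not run, because the contrast could not be estimated, were scan day for TNFa by genotype and the fit without a genotype term for genotype contrasts. The fits of genotype interactions without both low-actin arrays were not run because they leave no residual degrees of freedom. Absent signals limit how far the sizes of change of Cxcl1 and Cxcl10 can be read.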
